A study of Mus musculus with 8 samples.

Results

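Immune checkpoints were examined at the RNA level in KPC tumors, which are pancreatic tumors grown from an implanted mouse cancer cell line, in hosts with and without complement C3. The set was fixed by gene name as the checkpoint ligands and receptors Cd274, Pdcd1lg2, Cd80, Cd86, Vsir, Nt5e, Pdcd1, Ctla4, Lag3 and Havcr2. All 10 were present among the 29968 genes of the deposited count table. Bulk tumor RNA was sequenced from 4 WT and 4 C3-/- hosts, all male and 12 weeks old, and both described by the paper as C57BL/6J. The C3-/- hosts had both copies of the C3 gene disrupted. In both genotypes, 250000 KPC FC1245 cells in 50 µL of PBS were injected into the pancreas, and the study's endpoint was day 14. The cells are 1 line, isolated from the tumor of a mouse that carried Pdx-1-Cre and Trp53 R172H, and the C3 deletion is that of the host and not of the cancer cells.

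A T cell that recognizes its target through the T cell receptor is held back or helped by a second set of signals from the cell it meets. The PD-1 receptor (Pdcd1) is engaged by PD-L1 (Cd274) and PD-L2 (Pdcd1lg2). The B7 proteins CD80 and CD86 activate T cells through CD28 and restrain them through CTLA-4, which binds the same ligands more tightly. TIM-3 (Havcr2), LAG-3 and VISTA (Vsir) are further inhibitory receptors, VISTA being held also by myeloid cells as a ligand. CD73 (Nt5e) is not a receptor of T cells but the surface enzyme that makes extracellular adenosine, which suppresses them. Pancreatic tumors are known for dense stroma, many macrophages and few T cells.

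No checkpoint transcript passed the test for a difference between the tumors of WT and C3-/- hosts (n = 4 per genotype). In edgeR's quasi-likelihood test, none (0) of the 8 members that passed the filter on low counts was called at an adjusted p of 0.05, nor did any (0) reach an unadjusted p of 0.05. Across all 16610 genes tested, 0% were called at an adjusted p below 0.05, and 5.11% had an unadjusted p below 0.05, made up of 3.03% higher and 2.07% lower with the host's C3 absent. DESeq2 called 0 members, beside 0.0799% of the 20024 genes for which it gave an adjusted p. It gave 1 of the 8 members among those genes, Cd86, an unadjusted p below 0.05, beside 5.43% of the same 20024 genes. Too few counts were found to judge 3 members, Pdcd1lg2, Pdcd1 and Ctla4, with medians of 9, 2.5 and 2 counts over the 8 tumors. Of the 7 others, which had a median of at least 10 counts, 6 had a higher and 1 a lower mean level in C3-/- tumors, and their median log2 fold change was 0.28, beside 0.00 over all genes tested, of which 50.0% were higher. This tally rested in part on 1 tumor. Without C3-/- replicate 4, the log2 fold changes of Cd80, Havcr2 and Vsir were -0.01, -0.12 and -0.08. Those of Cd274, Cd86 and Lag3 were then 0.24, 0.60 and 0.33. The C3-/- and WT tumors overlapped for all 10 members, whereas 3.73% of genes tested had groups that did not overlap, 2.28% with all C3-/- tumors above all WT tumors.

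The total count per tumor was 13.3 to 23.4 M. C3 itself was counted 3370, 5652, 2998 and 7623 times in the 4 WT tumors, and 2338, 2387, 1591 and 1842 times in the 4 C3-/- tumors. Each C3-/- tumor lay below every WT tumor, and the C3-/- mean was 37.5% of the WT mean after scaling (adjusted p = 0.933 in edgeR and 1.28e-05 in DESeq2). A remainder was measured in every C3-/- tumor, and whether it came from the implanted cells was not tested. The labelled replicates are separate tumors, so the p-values measure the spread between these tumors only. In bulk RNA, fewer cells of a type and less RNA per cell cannot be told apart. Markers of surrounding tissue differed widely between tumors. The summed level of 6 acinar markers was 1425 CPM (counts per 1000000 of a tumor's total after TMM scaling) in C3-/- replicate 1, against 3.28 to 10.8 CPM in the other C3-/- tumors and 102 to 359 CPM in WT tumors. That of 6 skeletal muscle markers ran from 0.904 to 2790 CPM in WT and from 1.68 to 2630 CPM in C3-/- tumors.

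To compare genes with each other, the deposited FPKM values, which are per length of gene, were averaged over the 8 tumors. Nt5e was the most abundant member at 19.96 ± 3.61 FPKM (SD, n = 8), followed by Vsir at 7.83 ± 1.68 FPKM. Cd274 had 1.603 ± 0.262 FPKM, Lag3 1.58 ± 0.451 FPKM, Cd86 1.31 ± 0.515 FPKM and Havcr2 1.21 ± 0.406 FPKM. Cd80 had 0.8285 ± 0.262 FPKM. The lowest levels were those of Pdcd1lg2 at 0.308 ± 0.171 FPKM, Pdcd1 at 0.0877 ± 0.0502 FPKM and Ctla4 at 0.0544 ± 0.0303 FPKM. Across the 9 pairs of neighbors in this order, the step was in the same direction in 8 of 8 tumors for Nt5e over Vsir, Vsir over Cd274, Havcr2 over Cd80, Cd80 over Pdcd1lg2 and Pdcd1lg2 over Pdcd1 (exact sign-flip permutation test, two-sided p = 0.00781, the smallest that 8 tumors allow, adjusted p = 0.0141 over the 9 pairs). The steps between Cd274 and Lag3 (adjusted p = 0.758), Lag3 and Cd86 (adjusted p = 0.0586), Cd86 and Havcr2 (adjusted p = 0.758) and Pdcd1 and Ctla4 (adjusted p = 0.0703) were not larger than their spread over tumors by the same exact permutation test. CD73 and VISTA transcripts thus stood above the PD-1 and CTLA-4 ligands, and the 2 classical receptors of T cells stood at the bottom.

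**Figure D1:**
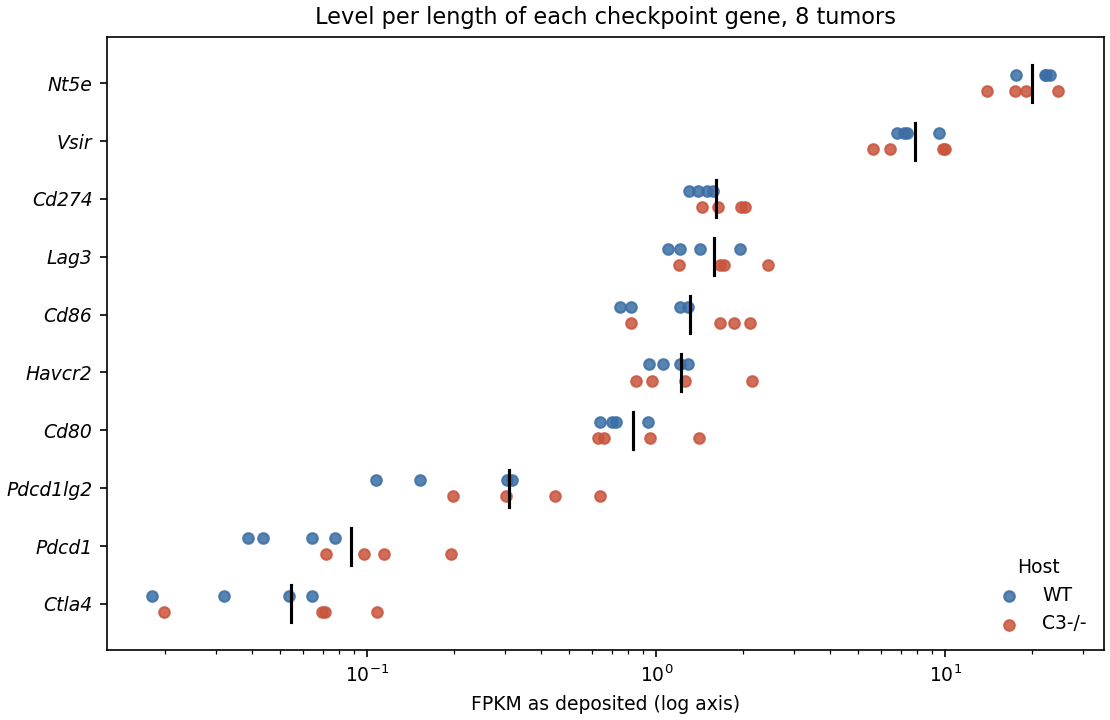
FPKM (log scale) of each checkpoint gene in the 4 WT and 4 C3-/- KPC tumors, ordered by the mean over all 8 tumors. Nt5e (mean 19.96) and Vsir (mean 7.83) lie above all others, and Pdcd1 (mean 0.0877) and Ctla4 (mean 0.0544) lie lowest.

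Cd274 encodes PD-L1, the ligand of PD-1 on tumor and myeloid cells (chromosome 19, 29344855 to 29365495, + strand; all gene coordinates are of mm39 and all 10 members are protein-coding). It had 5.04, 5.73, 5.50 and 4.77 CPM in WT replicates 1 to 4 and 5.29, 5.99, 7.38 and 7.22 CPM in C3-/- replicates 1 to 4. The 3 highest tumors were C3-/-, and C3-/- replicate 1 lay within the WT range. The means were 5.26 ± 0.436 CPM in WT and 6.468 ± 1.001 CPM in C3-/- tumors (mean ± SD, n = 4 for each genotype). The log2 fold change was 0.30 (SE 0.20, 95% interval -0.15 to 0.75), with an adjusted p of 0.993 in edgeR. The interval covers folds of 0.901 to 1.68. With the acinar marker level as a covariate the log2 fold change of Cd274 was 0.16. An exact permutation test on this gene alone gave p = 0.0857 (two-sided; the smallest possible with 4 against 4 is 0.0286). A long noncoding gene on the opposite strand, Gm36043, shares 14.2% of the exon bases of Cd274 and had 1 to 29 counts per tumor, beside 73 to 132 for Cd274. Whether reads of such overlapping genes were told apart by strand is not given in the sources used here.

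Pdcd1lg2 encodes PD-L2, the other PD-1 ligand, found on dendritic cells and macrophages (chromosome 19, 29388319 to 29448561, + strand). The 4 WT tumors gave 10, 8, 4 and 5 counts, and the 4 C3-/- tumors 27, 7, 14 and 11, each in order of replicate. C3-/- replicate 1 was the highest tumor and WT replicate 3 the lowest in counts, and the groups overlapped. In all, 27 counts were found in WT (95% exact Poisson interval 17.8 to 39.3) and 59 in C3-/- tumors (44.9 to 76.1). The ratio per total count was 2.0 (95% exact interval 1.25 to 3.29). These intervals cover counting error only and not the spread between tumors. The log2 fold change was 0.88 (SE 0.52, 95% interval -0.27 to 2.03), with an adjusted p of 0.985 in edgeR. Its gene model overlaps A930007I19Rik on the opposite strand, which had 29 to 110 counts per tumor, with no exon base shared.

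Cd80 and Cd86 encode the B7 ligands of CD28 and CTLA-4 on antigen-presenting cells. Cd80 (chromosome 16, 38275923 to 38316697, + strand) had 2.36, 2.71, 2.64 and 3.49 CPM in WT replicates 1 to 4 and 3.56, 2.46, 2.33 and 5.25 CPM in C3-/- replicates 1 to 4. Only C3-/- replicate 4 stood well above the WT range, and C3-/- replicate 3 was the lowest of all tumors. The means were 2.80 ± 0.483 and 3.40 ± 1.35 CPM, and the log2 fold change of 0.28 (SE 0.31, 95% interval -0.42 to 0.97, adjusted p = 0.999 in edgeR) was -0.01 without C3-/- replicate 4.

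Cd86 (chromosome 16, 36424231 to 36486443, - strand) had 4.42, 4.75, 3.01 and 2.77 CPM in WT replicates 1 to 4 and 7.77, 3.02, 6.11 and 6.89 CPM in C3-/- replicates 1 to 4. C3-/- replicates 1, 3 and 4 lay above all WT tumors, and C3-/- replicate 2 lay among the WT tumors. The means were 3.74 ± 0.991 CPM in WT and 5.95 ± 2.06 CPM in C3-/- tumors, with the largest log2 fold change among the 7 members that could be judged, 0.68 (SE 0.32, 95% interval -0.05 to 1.40). Its p was 0.064 (adjusted p = 0.971) in edgeR and 0.0433 (adjusted p = 0.897) in DESeq2, and an exact permutation test gave p = 0.143. The difference did not pass the adjusted threshold in either tool.

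Vsir encodes VISTA, a B7 family protein abundant on myeloid cells (chromosome 10, 60182630 to 60208463, + strand, inside the gene Cdh23 of the opposite strand without sharing exon bases). It had 33.96, 48.2, 36.5 and 37.4 CPM in WT replicates 1 to 4 and 49.6, 28.6, 32.3 and 50.6 CPM in C3-/- replicates 1 to 4. The C3-/- tumors held both the 2 highest and the 2 lowest values. The means of 39.01 ± 6.27 and 40.3 ± 11.5 CPM gave a log2 fold change of 0.05 (SE 0.21, 95% interval -0.42 to 0.51, adjusted p = 0.999 in edgeR), that is, folds of 0.748 to 1.43.

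Nt5e encodes CD73, the enzyme that converts AMP to adenosine (chromosome 9, 88209250 to 88254145, + strand). It had 151, 194, 192 and 200 CPM in WT replicates 1 to 4 and 121, 215, 164 and 151 CPM in C3-/- replicates 1 to 4. The lowest and the highest value were both from C3-/- tumors, and WT replicate 1 lay apart from the other WT tumors. It was the only judged member with a lower mean in C3-/- tumors, 163 ± 38.97 against 184 ± 22.6 CPM, a log2 fold change of -0.18 (SE 0.18, 95% interval -0.57 to 0.22, adjusted p = 0.999 in edgeR). With 2420 to 4701 counts per tumor, it was the most deeply counted member and its interval covered folds of 0.673 to 1.16. The log2 fold change was -0.35 with the acinar marker level as a covariate (adjusted p = 0.804 in edgeR), -0.06 without C3-/- replicate 1 and -0.34 without C3-/- replicate 2.

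Pdcd1 and Ctla4 encode PD-1 and CTLA-4, the receptors of T cells that antibodies in the clinic block. Pdcd1 (chromosome 1, 93966027 to 93980278, - strand) was counted 2, 1, 2 and 2 times in the WT tumors and 3, 4, 3 and 7 times in the C3-/- tumors. Ctla4 (chromosome 1, 60926159 to 60954991, + strand) was counted 2, 2, 1 and 1 times in WT and 1, 3, 4 and 3 times in C3-/- tumors. At this depth no difference could be judged for either gene. Summed counts were 7 in WT (exact Poisson interval 2.81 to 14.4) and 17 in C3-/- tumors (9.9 to 27.2) for Pdcd1, a ratio per total count of 2.23 (95% exact interval 0.878 to 6.35, counting error only). For Ctla4 they were 6 (2.2 to 13.1) and 11 (5.49 to 19.7), a ratio of 1.68 (0.57 to 5.54). The pseudogene Rpl18-ps1 lies in an intron of Ctla4 on the same strand and had 3 to 18 counts per tumor.

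Lag3 encodes an inhibitory receptor that binds MHC class II (chromosome 6, 124881324 to 124888668, - strand). It had 2.55, 3.01, 4.14 and 2.34 CPM in WT replicates 1 to 4 and 5.19, 2.58, 3.53 and 3.66 CPM in C3-/- replicates 1 to 4. The tumor with the highest value, C3-/- replicate 1, lay above all other tumors, and the 3 other C3-/- tumors lay within the WT range. The means of 3.01 ± 0.805 and 3.74 ± 1.08 CPM gave a log2 fold change of 0.32 (SE 0.30, 95% interval -0.34 to 0.98, adjusted p = 0.999 in edgeR). It was 0.12 without C3-/- replicate 1 and 0.51 without WT replicate 3.

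Havcr2 encodes TIM-3, present on exhausted T cells and on macrophages and dendritic cells (chromosome 11, 46345762 to 46372082, + strand). It had 2.86, 3.32, 3.54 and 2.60 CPM in WT replicates 1 to 4 and 3.46, 2.35, 2.65 and 5.91 CPM in C3-/- replicates 1 to 4. C3-/- replicate 4 was far above the rest, and C3-/- replicate 2 was the lowest. The means were 3.08 ± 0.428 and 3.59 ± 1.61 CPM, and the log2 fold change of 0.23 (SE 0.32, 95% interval -0.49 to 0.94, adjusted p = 0.999 in edgeR) was -0.12 without C3-/- replicate 4.

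**Figure D2:**
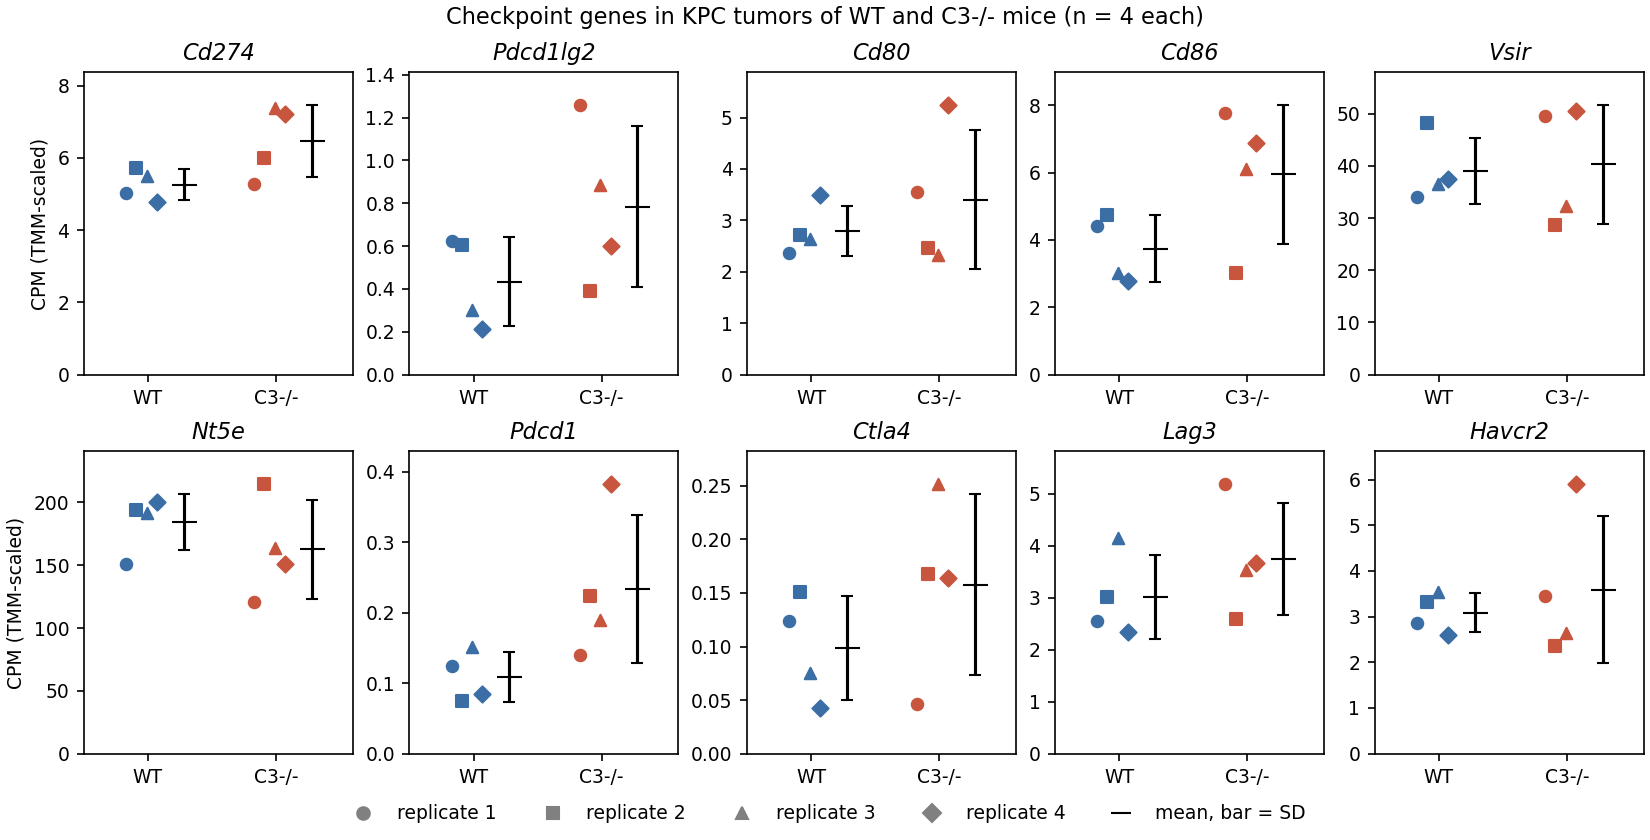
CPM (TMM-scaled) of each checkpoint gene in every WT and C3-/- tumor, with a marker shape per replicate and the mean and SD of 4 tumors beside the points. The genotypes overlap in every panel, and C3-/- replicate 4 is the highest tumor for Cd80 (5.25) and Havcr2 (5.91).

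**Figure D3:**
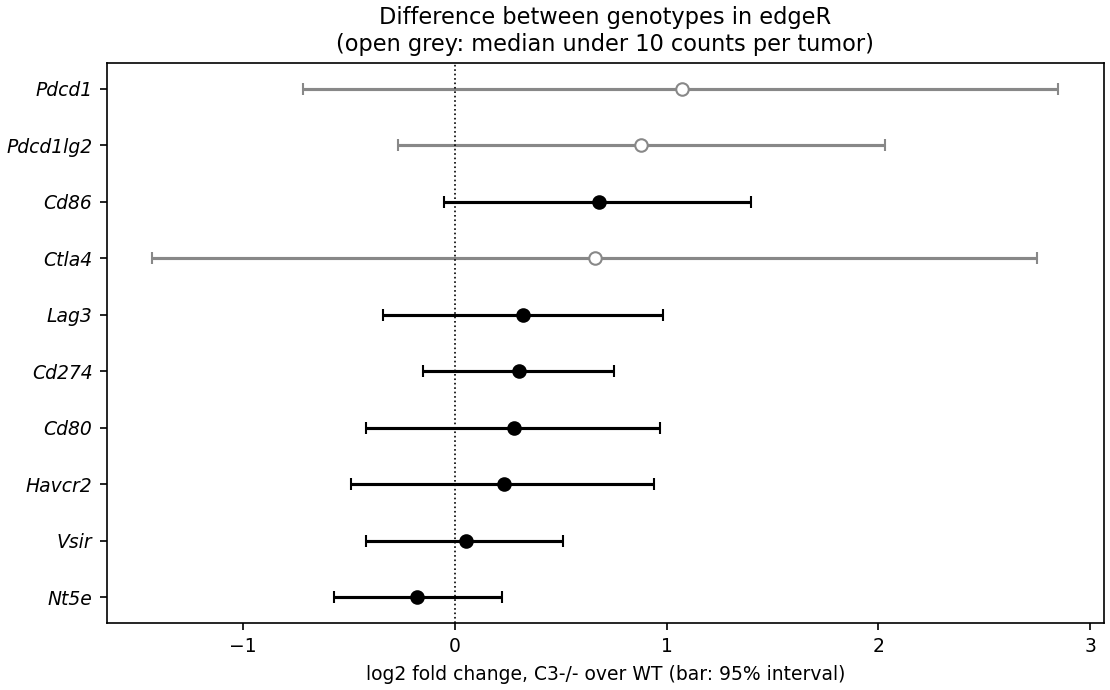
Log2 fold change, C3-/- over WT, of each checkpoint gene from edgeR's quasi-likelihood fit with its 95% interval (Pdcd1 and Ctla4 from the fit without a filter on low counts). Filled and open points separate genes with enough counts from the 3 with too few, and every interval includes 0.

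Most T cell markers were low as well. Of 10 T cell markers, 7 had a median below 10 counts and 5 a median of 3 or fewer. The T cell receptor complex genes Cd3d, Cd3e and Cd3g had 0 to 7, 0 to 5 and 0 to 8 counts per tumor, and the coreceptors Cd4 and Cd8a had 1 to 33 and 1 to 20. The receptor chain genes Trac and Trbc2, at 12 to 43 and 62 to 146 counts, and the kinase gene Lck, at 11 to 54 counts, were higher, and Trbc2 had 6.93 FPKM (mean of 8 tumors). Summed over the list, T cell markers made up 8.06 to 10.9 CPM in WT and 6.61 to 15.1 CPM in C3-/- tumors, and 0 of the 4 markers that passed the filter (Cd8a, Trac, Trbc2 and Lck) were called by edgeR or had an unadjusted p below 0.05. Of the 6 that did not pass it, Cd4 and Cd3d were higher in C3-/- tumors at an unadjusted p below 0.05 in edgeR's fit without a filter. Cd4 had 12 counts over the WT and 84 over the C3-/- tumors (p = 0.00377 in that fit, exact permutation p = 0.0857, adjusted p = 0.337 in DESeq2), and Cd3d had 1 and 16 (p = 0.0367 in that fit, exact permutation p = 0.143). Both genes overlapped between genotypes. The 4 others had 8 and 14 counts (Cd3e), 7 and 17 (Cd2), 11 and 11 (Cd3g) and 18 and 13 (Cd8b1) over the WT and C3-/- tumors, so the direction was mixed, and Cd4 and Cd3d are singled out after their values were seen. The 9 macrophage markers summed to 1270 to 1640 CPM in WT and 1060 to 2130 CPM in C3-/- tumors, and the 7 dendritic cell markers to 15.6 to 22.0 and 13.9 to 34.2 CPM. In edgeR, 0 genes of these lists were called. Its unadjusted p was below 0.05 for 2 of 3 B cell, 1 of 6 dendritic cell and 1 of 5 neutrophil markers tested. These markers were all higher in C3-/- tumors, and 0 of 9 macrophage markers had such a p. The background share at this threshold, from 16610 genes, was 3.03% for higher and 2.07% for lower levels. Of 4 hepatocyte markers, 2 had an unadjusted p below 0.05, both lower (summed level 15.8 to 68.8 CPM in WT and 11.2 to 22.5 CPM in C3-/- tumors). The part of any of these cell types in the values of the checkpoint genes was not tested. Macrophage markers exceeded the T cell and dendritic cell lists in every tumor.

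The pan-leukocyte gene Ptprc (CD45) had 21.4 ± 0.906 CPM in WT and 30.6 ± 9.20 CPM in C3-/- tumors. The lowest C3-/- tumor exceeded the highest WT tumor, the top value was 44.0 CPM in C3-/- replicate 4, and the difference did not pass the threshold in edgeR (log2 fold change 0.52, exact permutation p = 0.0286, adjusted p = 0.965). Across the 8 tumors, Pearson's r with Ptprc (log2 CPM) was 0.74 for Cd274, 0.73 for Cd80, 0.70 for Havcr2, 0.67 for Cd86, 0.42 for Vsir, 0.31 for Lag3 and -0.44 for Nt5e. The smallest exact permutation p, that of Cd274, was 0.0297, and 0 of the 7 relations had an adjusted p below 0.05 (smallest 0.136 over the 7). Spearman's rho was 0.64 for Cd86 (exact permutation p = 0.0962), 0.52 for Cd274 (p = 0.197, exact), 0.24 for Cd80 (p = 0.582, exact) and 0.02 for Havcr2 (p = 0.977, exact). Without C3-/- replicates 3 and 4, the 2 tumors farthest from the median of Ptprc, r was -0.01 for Cd274 and -0.08 for Havcr2, so those 2 relations rested on these tumors, while it was 0.58 for Cd80 and 0.64 for Cd86. The value for Cd80 was 0.04 without C3-/- replicate 4 alone, so it too rested on that tumor. As deviations from each genotype's mean, r was 0.50 for Cd274, 0.77 for Cd80, 0.45 for Cd86, 0.82 for Havcr2, 0.04 for Lag3, -0.26 for Nt5e and 0.56 for Vsir. Within the 4 WT and the 4 C3-/- tumors, as values that were not tested, r was -0.63 and 0.63 for Cd274, -0.88 and 0.92 for Havcr2, -0.96 and 0.18 for Lag3, 0.55 and 0.82 for Cd80, 0.07 and 0.53 for Cd86, 0.11 and 0.63 for Vsir and -0.01 and -0.30 for Nt5e. The signs differed for Cd274, Havcr2 and Lag3, but Ptprc itself covered 20.1 to 22.3 CPM among WT tumors, against 23.3 to 44.0 CPM among C3-/- tumors, so the WT values rest on a narrow range. When the checkpoint genes were expressed per Ptprc, 6 of 7 had a lower and Cd86 a higher mean in C3-/- tumors. Because Ptprc itself was higher there (log2 fold change 0.52), a member that rose less than Ptprc becomes lower by this ratio. The count of 6 of 7 is therefore not a result apart from the level of Ptprc. The differences in log2 ratio ran from -0.67 for Nt5e and -0.46 for Vsir to 0.14 for Cd86, and none passed an exact permutation test (p from 0.114 to 0.629, adjusted p of 0.267 or more). The part of leukocyte content in the differences between genotypes was not tested beyond these values.

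The members were also set against the summed level of the macrophage markers. Pearson's r over the 8 tumors was 0.84 for Vsir, 0.82 for Lag3 and 0.80 for Havcr2, with exact permutation p-values of 0.0122, 0.0127 and 0.0116 and an adjusted p of 0.0595 for all 3 over the 14 relations with macrophage and epithelial markers. Spearman's rho was 0.86, 0.71 and 0.90 (exact permutation p = 0.0107, 0.0576 and 0.00456, adjusted p = 0.075, 0.202 and 0.0639). None of the 14 relations passed the adjusted threshold. The 2 tumors farthest from the median, C3-/- replicates 1 and 4, had the highest macrophage sums, and without them r was 0.62 for Vsir, 0.67 for Lag3 and 0.95 for Havcr2. Within genotypes, as deviations from each genotype's mean, r was 0.85, 0.83 and 0.79. For Cd80 and Cd86 r was 0.69 and 0.63 (exact permutation p = 0.0511 and 0.1), and 0.16 and -0.04 without the same 2 tumors, so both rested on those tumors. Cd274 had r = 0.06 (exact permutation p = 0.882), and Nt5e had r = -0.70 (p = 0.0531, exact), which was -0.11 without C3-/- replicates 1 and 4. With the summed epithelial tumor markers, r lay between -0.52 for Cd274 and 0.49 for Lag3, and the smallest exact permutation p was 0.193. As deviations from each genotype's mean, r of Lag3 with the epithelial markers was 0.80, close to its 0.83 with the macrophage markers, and its r without that centering, over the tumors other than C3-/- replicate 1 and WT replicate 3, was -0.39.

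**Figure D4:**
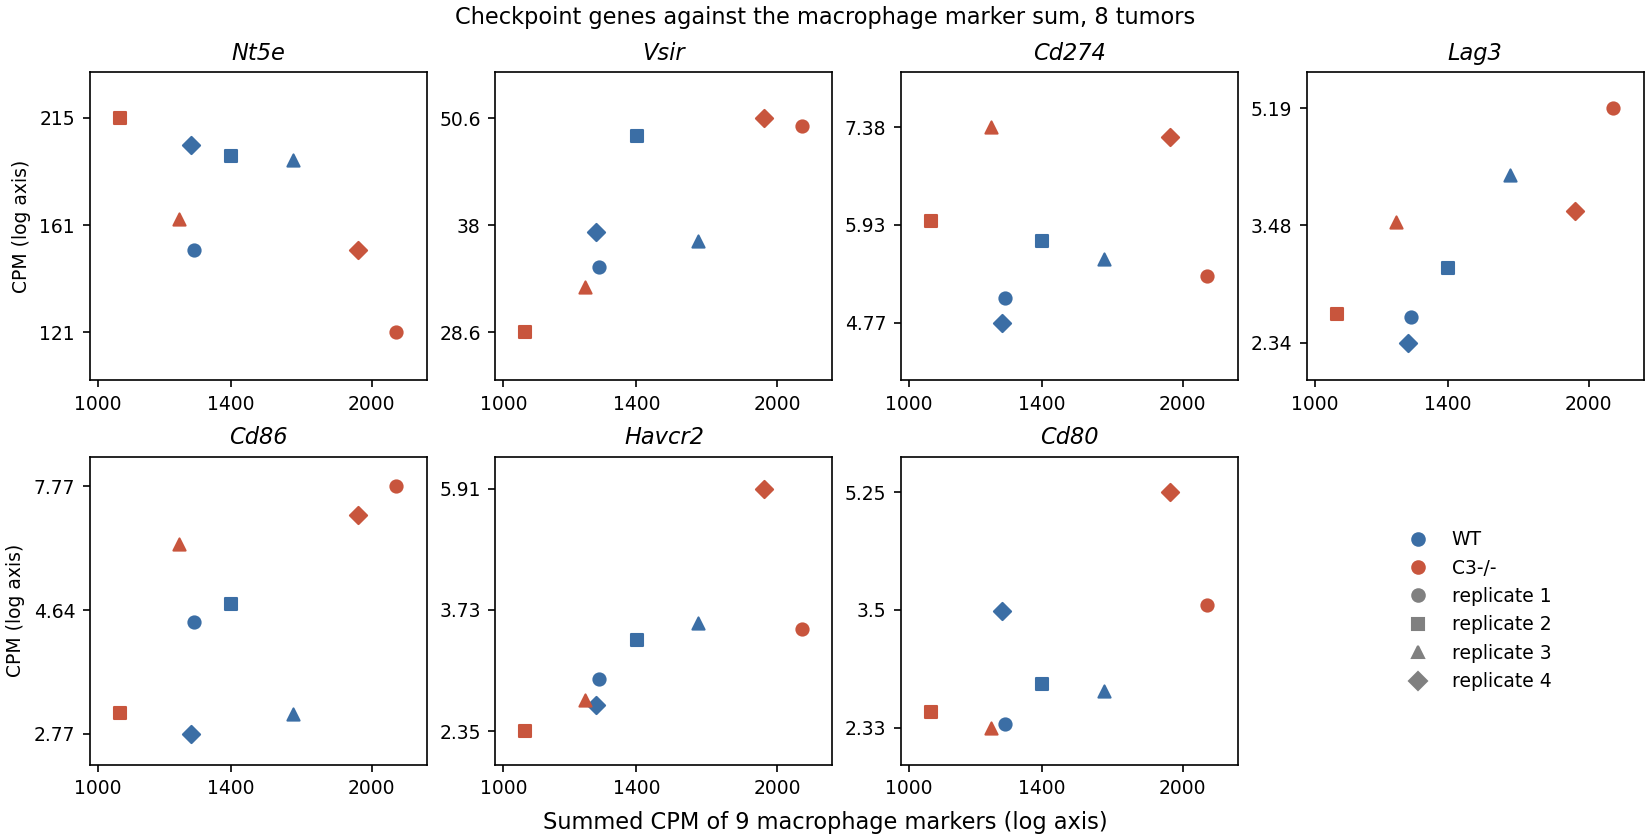
CPM of the 7 checkpoint genes with enough counts against the summed CPM of 9 macrophage markers in the same tumor, both on log axes, for 4 WT and 4 C3-/- tumors. The points of Vsir, Lag3 and Havcr2 lie higher in tumors with more macrophage transcript (r = 0.84, 0.82 and 0.80), and those of Cd274 do not (r = 0.06).

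For each judged member, the genes whose log2 CPM followed it most closely over the 8 tumors were sought among all genes tested, as a description. Cd80 was nearest to Sting1 (r = 0.953), which encodes the adaptor of cytosolic DNA sensing, Rasl12 (r = 0.946) and Rapgef4 (r = 0.935). Lag3 was nearest to Ctdnep1 (r = 0.986) and Cinp (r = 0.983), followed by Aif1, a macrophage gene (r = 0.979). Nearest to Havcr2 were Bcl6b (r = 0.957), Coq3 (r = 0.935) and Csf2rb, the shared signaling chain of GM-CSF, IL-3 and IL-5 receptors (r = 0.925). Nt5e was nearest to Znrd2 (r = 0.962), Il13ra1, an IL-13 receptor chain (r = 0.955), and Cnot7 (r = 0.953), and Vsir to Col16a1 (r = 0.959), Fbxo5 (r = 0.951) and Chst7 (r = 0.946). The nearest genes of Cd86 were Gm17530 (r = 0.983), Tspyl1 and Gpn3 (both r = 0.976), and those of Cd274 were Gm11007 (r = 0.954), Dagla and Gm16973 (both r = 0.94). With 8 tumors and 16610 genes, high values of r arise for any gene.

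The partners of these genes in the wider checkpoint network were taken from 6 lists with 47 genes, of which 46 were in the table and 39 were tested. In edgeR, 0 of 39 were called, 19 had a higher and 20 a lower mean in C3-/- tumors, and the median log2 fold change was -0.01. An unadjusted p below 0.05 was found for 4 of the 39, 1 higher and 3 lower. Over all 16610 genes tested the share was 5.11%, with 3.03% higher and 2.07% lower. Icosl, the ligand of the costimulatory receptor ICOS, had 7.995 ± 0.717 CPM in WT and 10.7 ± 1.45 CPM in C3-/- tumors (log2 fold change 0.42, SE 0.18, exact permutation p = 0.0286, adjusted p = 0.971 in edgeR). Igsf11, a ligand of VISTA, had 3.97 ± 0.593 and 2.36 ± 0.685 CPM (log2 fold change -0.74, SE 0.27, exact permutation p = 0.0286, adjusted p = 0.965 in edgeR). For both genes the C3-/- and WT tumors did not overlap, as for 3.73% of all genes tested.

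Among the 10 myeloid checkpoints and suppressive enzymes, 0 were called and 2 had an unadjusted p below 0.05, both lower. Over all genes tested, 2.07% were lower at that threshold. Vsig4, a macrophage receptor that binds fragments of C3 and also inhibits T cells, had 5.77 ± 1.91 CPM in WT and 2.86 ± 1.04 CPM in C3-/- tumors, with overlap (log2 fold change -1.01, SE 0.35, exact permutation p = 0.0571, adjusted p = 0.96 in edgeR). None of these differences passed the adjusted threshold. In the 3 lists without such a gene, the smallest p belonged to Nectin3 (log2 fold change 0.09), the adenosine deaminase gene Ada (-0.56) and Cd40, a costimulatory receptor of antigen-presenting cells (-0.26), with adjusted p-values of 0.971 or more in edgeR.

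By list, the direction was mixed. Among the CD28 and PD-1 family partners, 4 of 6 tested genes were higher (median log2 fold change 0.13), and among the ligands of TIM-3, LAG-3 and VISTA 2 of 7 (-0.11). In the TIGIT axis 3 of 4 were higher (0.02), in the adenosine pathway 3 of 5 (0.09), in TNF superfamily costimulation 3 of 7 (-0.04), and among the myeloid checkpoints 4 of 10 (-0.10). Ranked within each list and not over all lists, the most abundant myeloid checkpoint gene per length was Cd24a, whose product is a ligand of Siglec receptors. It had 246 FPKM (mean of 8 tumors, as for the next 3). The galectin gene Lgals3 led the ligands of TIM-3, LAG-3 and VISTA at 96.4 FPKM, and Nectin2 the TIGIT axis at 31.5 FPKM. Cd276, which encodes B7-H3, led the CD28 and PD-1 family partners at 22.9 FPKM. Each of these had a higher mean than Nt5e, the most abundant of the 10 checkpoint genes. Tnfsf9, the 4-1BB ligand gene, led the TNF superfamily list at 8.10 FPKM. Among the adenosine genes, Entpd1, which encodes the CD39 enzyme upstream of CD73, had 4.35 ± 1.08 FPKM, close to Ada at 4.58 ± 1.78 FPKM, and a log2 fold change of 0.19 (SE 0.22, exact permutation p = 0.686, adjusted p = 0.999 in edgeR).

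Interferon gamma is the best known inducer of PD-L1, acting in part through IRF1. Of 9 genes of this response, 0 were called by edgeR. A higher mean in C3-/- tumors was found for 5 and a lower mean for 4 (median log2 fold change 0.49). The unadjusted p in edgeR was below 0.05 for 3, all higher, beside a background share of 3.03% higher among 16610 genes. Whether the list as a whole differed was not tested. Irf1 had 25.6 ± 3.33 CPM in WT and 35.9 ± 2.49 CPM in C3-/- tumors, without overlap (log2 fold change 0.49, SE 0.13, exact permutation p = 0.0286, adjusted p = 0.933 in edgeR). Gbp2, an interferon-induced GTPase, had 8.17 ± 0.566 and 13.7 ± 7.17 CPM, with overlap (log2 fold change 0.75, SE 0.33, exact permutation p = 0.229, adjusted p = 0.971 in edgeR). Beside these, the log2 fold change of Cd274 was 0.30. The receptor chain Ifngr1 was the most abundant of the list at 70.5 FPKM, with 207 ± 20.7 CPM in WT and 198 ± 20.9 CPM in C3-/- tumors.

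**Figure D5:**
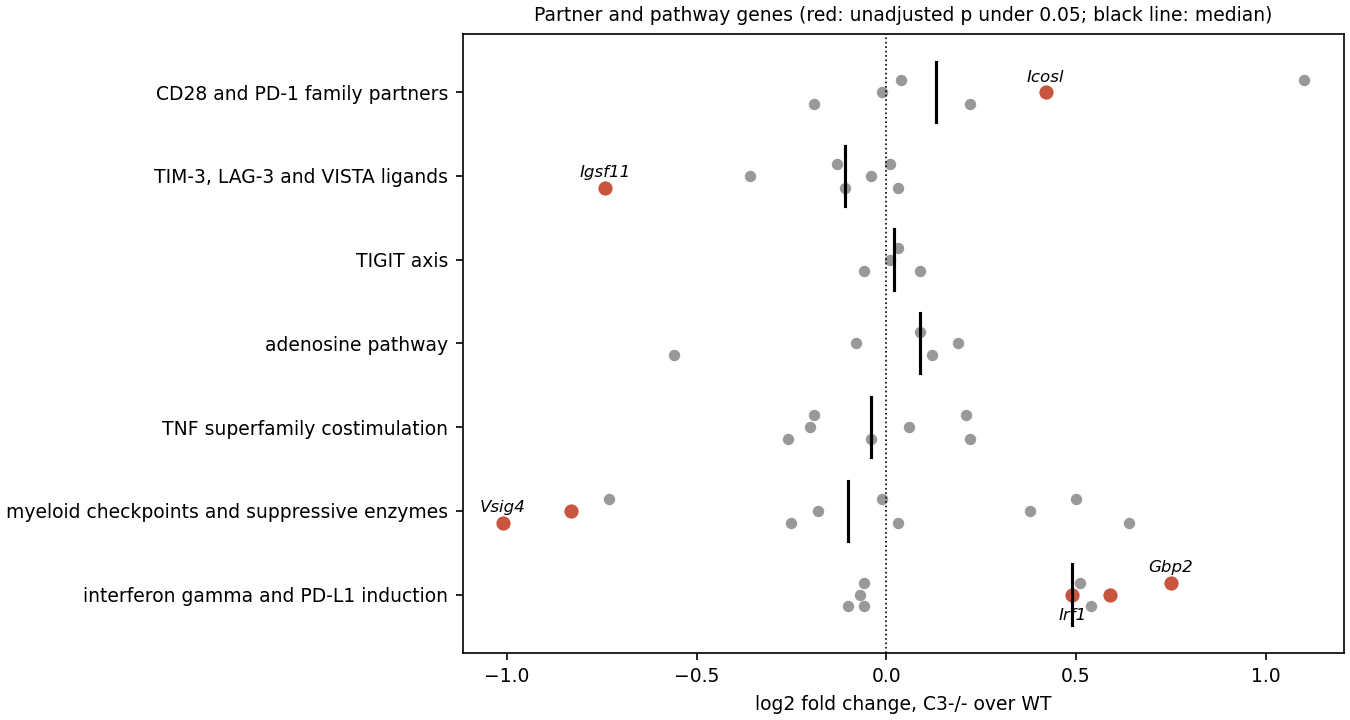
Log2 fold change, C3-/- over WT, of the tested genes of 6 checkpoint network lists and the interferon gamma list, 1 point per gene, with red points for an unadjusted p below 0.05, names beside 5 genes described in the text and a black line for each list's median. The median of the interferon list is 0.49, and those of the 6 other lists lie between -0.11 and 0.13.

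The promoters of Cd274 and of 2 interferon genes are shown because they differ in the letters that interferon-activated factors are known to bind. They were taken from RefSeq (GRCm38.p6, + strand), from 250 bases before to 50 bases after the start of the gene, and capitals mark a gamma-activated site (GAS, TTCNNNGAA) in Irf1 and a core interferon-stimulated response element (ISRE, GAAA and GAAA with NN between them, here on the opposite strand) in Gbp2.
Cd274, chr19:29367188-29367487: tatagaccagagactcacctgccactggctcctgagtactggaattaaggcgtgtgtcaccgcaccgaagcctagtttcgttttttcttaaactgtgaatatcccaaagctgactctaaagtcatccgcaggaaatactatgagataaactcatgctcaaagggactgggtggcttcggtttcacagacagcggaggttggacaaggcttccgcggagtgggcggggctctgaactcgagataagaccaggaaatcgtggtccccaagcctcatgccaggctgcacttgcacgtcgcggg
Irf1, chr11:53769764-53770063: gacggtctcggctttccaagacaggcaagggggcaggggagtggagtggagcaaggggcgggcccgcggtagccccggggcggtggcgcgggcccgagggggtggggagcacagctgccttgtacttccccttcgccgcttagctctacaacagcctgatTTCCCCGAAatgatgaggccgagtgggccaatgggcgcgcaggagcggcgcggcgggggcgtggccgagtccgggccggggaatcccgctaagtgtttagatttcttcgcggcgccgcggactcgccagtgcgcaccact
Gbp2, chr3:142620413-142620712: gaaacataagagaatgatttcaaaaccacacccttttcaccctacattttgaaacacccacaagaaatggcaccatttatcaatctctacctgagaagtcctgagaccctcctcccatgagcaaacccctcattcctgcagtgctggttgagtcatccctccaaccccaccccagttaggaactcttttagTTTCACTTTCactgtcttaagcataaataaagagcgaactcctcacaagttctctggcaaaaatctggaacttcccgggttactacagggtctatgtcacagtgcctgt

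The GAS of Irf1 begins 90 bases and the ISRE core of Gbp2 59 bases before the start, and the second Irf1 entry held neither motif. Searched on both strands, GAS letters occur in 8.3% and ISRE core letters in 3.44% of all 32851 promoters of this length. Neither was in the promoters of Cd274, Pdcd1lg2, Cd80, Havcr2, Pdcd1, Ctla4, Nt5e or Vsir, and Cd86 and Lag3 have no entry. A match describes the sequence and is not a measured site, and the windows say nothing of letters outside them.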

How the data were processed

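Bulk RNA of 8 KPC tumors (4 WT and 4 C3-/- hosts) was sequenced as poly-A selected, paired-end libraries. The authors aligned read pairs to mm39 and deposited whole-number counts per gene. The aligner is named as STAR in the methods and as HISAT2 2.0.5 in the submitters' processing notes, and the strand setting of counting is not given in the sources used here. The authors also deposited a size-factor-normalized signal (not used) and FPKM values, which were used to compare genes with each other. The authors' own comparison (DESeq2 1.20.0), deposited as a log2 fold change, a p-value and its adjusted form, was not used. The total was 13.3 to 23.4 M counts per tumor, and intervals on counts cover counting error only, since read pairs without molecular identifiers are not independent molecules.

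Genotypes were compared on the deposited counts with edgeR 4.0.16 in R 4.3.3 (filterByExpr with a minimum count of 10, TMM, glmQLFit and glmQLFTest, Benjamini-Hochberg adjustment over all 16610 genes tested). Values for Pdcd1 and Ctla4, which did not pass the filter, come from the counts and, in the plot of fold changes, from a fit without it. A member with a median below 10 counts was treated as too low to judge. Exact permutation tests were two-sided and used log2 of CPM or FPKM plus 0.1. Correlations with Ptprc and with the marker sums were taken on log2 of CPM plus 0.1. The nearest genes were sought on log2 CPM with a prior count of 2. The alternatives were DESeq2 1.42.0, limma 3.58.1 with voom, DESeq2's size factors, other filters, a robust fit, replicate number as a block, a skeletal muscle or an acinar covariate and each tumor left out. The scripts were tested on simulated data with 200 genes changed.

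The members and lists were chosen with earlier results of these data known. The relations with macrophage and epithelial marker sums were added after the data were seen. Genes named were the 10 members, C3, Ptprc, the nearest genes by correlation, and in each list the gene with the smallest p, those with an unadjusted p below 0.05 and the most abundant. Some of these genes are not reported here. Values for Cd4 and Cd3d come from the fit without a filter. Entpd1 and the T cell markers were named after their values were seen.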

Additional observations from a re-analysis of the deposited data

Results flagged for a closer look

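In 46 groups of 4 tumors, the most distant tumor was compared with its group by Dixon's ratio of gap to range, which chance exceeds in about 1 of 20 groups (2.3 of 46). It was exceeded in 3 groups. For Nt5e, WT replicate 1 lay at 7.23 on the log2 CPM scale and the other WT tumors at 7.58 to 7.64 (151 against 192 to 200 CPM, ratio 0.853). The T cell marker sum of WT replicate 3 was 3.46 on the log2 scale, against 3.03 to 3.09 (10.9 against 8.06 to 8.42 CPM). The skeletal muscle marker sum of C3-/- replicate 2 was 0.83 on the log2 scale, against 10.15 to 11.36 (1.68 against 1140 to 2630 CPM).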

How the results depend on the processing

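The count of checkpoint genes called was 0 in all 17 alternative fits, as was that of the network genes. Over all genes, edgeR called 0, DESeq2 16, and fits that left out 1 tumor 0 to 4 (4 without C3-/- replicate 1). Of 152 member fold changes under the alternatives, 146 kept their direction, 6 turned and 0 passed the threshold. With a skeletal muscle covariate the log2 fold change of Vsir was 0.00, and with 1 tumor left out it ran from -0.08 to 0.18, that of Cd80 from -0.01 to 0.41 and that of Havcr2 from -0.12 to 0.39, the lowest values of the latter pair without C3-/- replicate 4. That of Lag3 ran from 0.12 to 0.51, of Nt5e from -0.34 to -0.06, of Cd274 from 0.22 to 0.38 and of Cd86 from 0.52 to 0.89. An acinar covariate gave 0.16 for Cd274 and -0.35 for Nt5e, and a muscle covariate 0.17 for Cd80. Pdcd1lg2 had no value without C3-/- replicate 1 or with at least 10 counts required in every tumor. Members whose groups did not overlap numbered 0, and 0 to 3 with 1 tumor left out. Without C3-/- replicate 1 they were Cd274, Pdcd1 and Ctla4 (2323 of 16610 genes then did not overlap), without C3-/- replicate 2 Cd86 (1142 genes) and without WT replicate 3 Pdcd1 (1118 genes). Of the FPKM order, 5 steps held, and 5 to 6 with 1 tumor left out. Pearson's r with Ptprc ran from -0.27 to 0.81 for Havcr2 and from -0.04 to 0.59 for Vsir, with the lowest values without C3-/- replicate 4, and from 0.04 (again without that tumor) to 0.89 for Cd80. The causes were not tested. Replicate numbers share only a name across genotypes (correlations of deviations -0.03, 0.491, -0.356 and 0.594). With the replicate block 0 genes and 0 members were called, and the log2 fold change of Cd86 was 0.65. Depth limits Pdcd1lg2, Pdcd1 and Ctla4.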
